A study of Mus musculus with 6 samples.

Results

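The genes described here are 10 that make peptides for MHC class I molecules and load them: Tap1, Tap2, Tapbp, Tapbpl, Psmb8, Psmb9, Psmb10, Psme1, Psme2 and Erap1. They were chosen by gene name from the 34745 genes in the deposited expression table, and all 10 were found, each once. The tumours arose from cells of the mouse hepatoma line Hep1-6 placed under the skin of C57BL/6J mice, an inbred strain with its own immune system. The hosts of 3 tumours ate a normal diet (ND) and those of the other 3 a high cholesterol diet (HCD), and no other treatment or allele is named for either group. All tumours therefore share a single cell line, an injection site away from the liver and the leukocytes of the host. The labels do not say that each tumour came from a different mouse, so the p-values speak only to the spread among these 6 samples, which may be technical. Values are FPKM, fragment counts scaled to gene length and to library size, and those of single tumours are listed in the order of their replicate numbers, 1 to 3.

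Proteins of the cytosol are cut into peptides by the proteasome, whose 20S core carries 3 catalytic subunits, encoded by Psmb5, Psmb6 and Psmb7 in most tissues. Under interferon gamma, and constitutively in many leukocytes, newly made cores take up Psmb8, Psmb9 and Psmb10 in their place, which gives the immunoproteasome. Psme1 and Psme2 encode the subunits of PA28, a ring that caps the core and is also induced by interferon gamma. Tap1 and Tap2 form the transporter that carries peptides into the endoplasmic reticulum, where Erap1 trims them. Tapbp (tapasin) and Tapbpl (a tapasin-like editor known as TAPBPR) help class I molecules exchange weakly bound peptides for strongly bound ones. Hepatocytes and hepatoma cells can express all of these genes, and so can the leukocytes of a tumour.

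Libraries held 20358810 to 26230728 fragments, as read from the steps between low values, and 11495 to 12050 genes reached 1 FPKM. Hepatoma identity was checked on 7 marker genes, none of which was at 0: the FPKM of Alb averaged 1375 ± 155 with ND and 1439 ± 250 with HCD (SD, n = 3), and that of Afp 142 ± 28.9 and 154 ± 43.6. The summed level of these 7 markers was 3389.8 to 3847 FPKM in ND and 3351 to 4112 FPKM in HCD. Of the 7, 3 had a higher mean log2 value in HCD and 4 a lower one. Ttr had the lowest level of them, at 5.61 to 12.9 FPKM. ND 1 and HCD 2 stood apart from the other tumours in leukocyte markers, with the lowest and the highest summed level. Results on the 10 genes are also given without these libraries. Leaving out both was chosen after seeing the data, and most of the 10 genes had their own extremes there. It is therefore not an independent check. No gene of the whole table passed the test between diets in limma at an adjusted p of 0.05 (0 of 13417 tested, 0%), and 789 had an unadjusted p under 0.05, 343 of them higher in HCD and 446 lower.

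All 10 genes were expressed in every tumour, and each had a higher mean in HCD than in ND, as did 55.7% of all tested genes. None passed the test, with adjusted p between 0.794 and 0.803 and unadjusted p between 0.0624 and 0.238. Log2 differences (HCD minus ND, of log2(FPKM + 1)) ran from 0.19 for Erap1 to 0.41 for Psmb10, with a median of 0.29, against a median of 0.02 over all tested genes. In bulk tumour RNA, fewer cells of an expressing type and less RNA per cell cannot be told apart. The groups did not overlap for Psmb10 and Psme1, 2 of the 10 genes, where 5.98% of tested genes had all 3 HCD values above all 3 ND values. No member had all HCD values below all ND values, as 6.13% of tested genes did.

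The tumour ND 1 had the lowest value of all 6 for 10 of the 10 genes, where 27.3% of tested genes were lowest in that tumour. It was also lowest for most other proteasome subunits, as given below. HCD 2 had the highest value for 9 of the 10, where 24.0% of tested genes were highest in that tumour. The exception was Erap1, with its highest value in HCD 1. The lowest value in ND 1 and the highest in HCD 2 held together for 9 of the 10 genes and for 11.9% of tested genes. Relative to the mean of ND 2 and ND 3, ND 1 was at 55.6% for Tap2, the lowest share, and at 82.3% for Erap1, the highest. The coefficient of variation within ND was 11.1% to 33.4% and exceeded that within HCD, 5.92% to 19.6%, for each of the 10 genes. Without ND 1 the differences ran from 0.05 to 0.20 with a median of 0.08, and without ND 1 and HCD 2 from -0.07 to 0.14 with a median of 0.02. In the latter comparison 5 of the 10 genes had the higher mean in HCD, and the median over all tested genes was -0.0024. That comparison by construction removes the tumours at the extremes of most of the 10 genes.

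**Figure D1:**
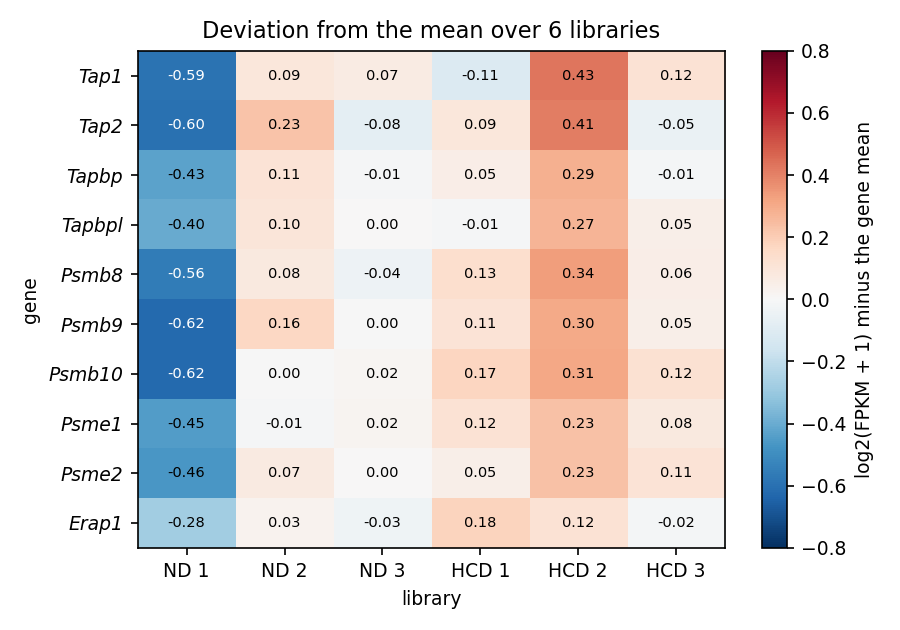
Deviation of each gene (rows) in each library (columns) from its own mean over the 6 libraries, on the log2(FPKM + 1) scale, with the value printed in each cell and blue for lower, red for higher. The ND 1 column is negative for all 10 genes, from -0.62 to -0.28, and the HCD 2 column is positive for all 10, from 0.12 to 0.43.

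Among the 3 inducible catalytic subunits, Psmb10 (also called MECL-1) had the highest mean FPKM. It had an FPKM of 30.7, 47.7 and 48.3 in the ND tumours and of 54.0, 59.5 and 52.1 in the HCD tumours. All HCD tumours lay above all ND tumours, though ND 2 and ND 3 were much nearer to HCD than to ND 1. The log2 difference was 0.41 (SE 0.18, 95% interval -0.03 to 0.84, limma adjusted p = 0.794), and it was 0.20 without ND 1.

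Psmb8 (LMP7), which replaces Psmb5 and cuts after hydrophobic residues, had an FPKM of 6.72, 10.96 and 10.0 in the ND tumours and of 11.4, 13.3 and 10.8 in the HCD tumours. The groups overlapped by a single pair of libraries, ND 2 above HCD 3. Its log2 difference of 0.35 (95% interval -0.08 to 0.77, limma adjusted p = 0.794) was 0.16 without ND 1. Psmb9 (LMP2), which replaces Psmb6, had an FPKM of 7.91, 14.4 and 12.7 in the ND tumours and of 13.8, 15.9 and 13.2 in the HCD tumours. ND 2 lay above both HCD 1 and HCD 3. The difference of 0.31 (95% interval -0.19 to 0.81, limma adjusted p = 0.794) was 0.07 without ND 1 and -0.00062 without ND 1 and HCD 2.

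Psme1, the alpha subunit of PA28, had an FPKM of 12.7, 17.5 and 18.0 in the ND tumours and of 19.3, 20.9 and 18.7 in the HCD tumours. The groups did not overlap, but HCD 3 and ND 3 were close. Its log2 difference was 0.29 (SE 0.13, 95% interval -0.04 to 0.61, limma adjusted p = 0.794), or 0.14 without ND 1. Psme2, the beta subunit, had an FPKM of 17.2, 25.4 and 24.2 in the ND tumours and of 25.0, 28.5 and 26.1 in the HCD tumours. Only ND 2 reached into the HCD range, above HCD 1, and the difference of 0.26 (adjusted p = 0.794) was 0.09 without ND 1. The ratio of Psme2 to Psme1 averaged 1.38 ± 0.0576 with ND and 1.35 ± 0.0489 with HCD (SD, n = 3), and was 1.36 in ND 1, so both subunits were low together there. Psme2 has a near-identical copy, Psme2b, whose transcript matches it at 99.4% of 794 aligned bases. Reads of the pair may be divided or lost in counting, which makes the level of Psme2 uncertain, and Psme2b itself was listed at 3.40 to 6.73 FPKM.

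**Figure D2:**
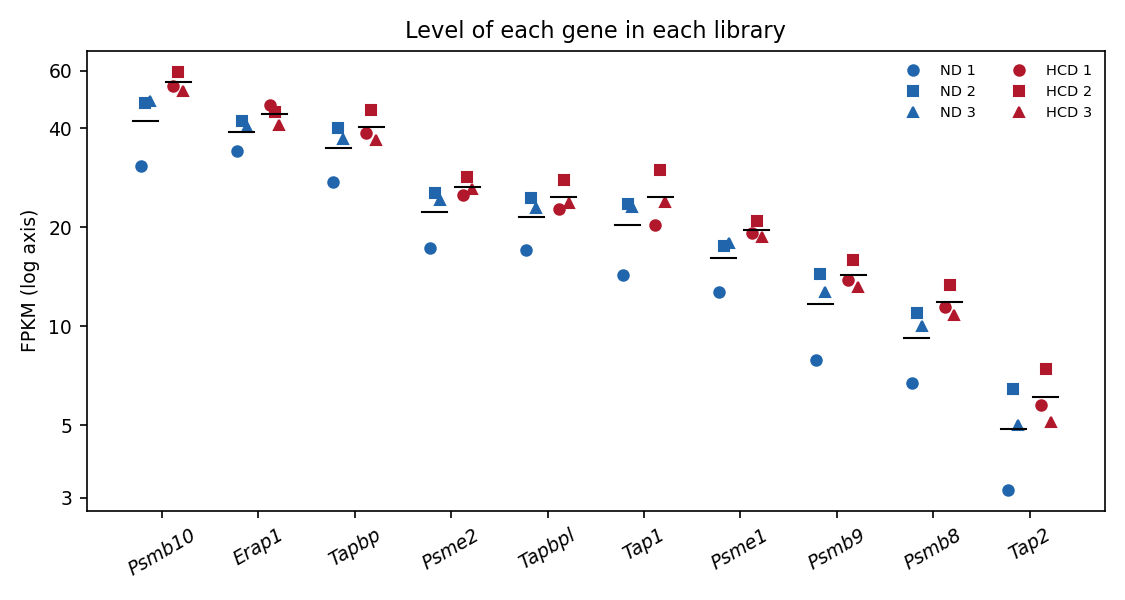
FPKM on a log axis for each of the 10 genes (columns, ordered by mean level) in each library (points; blue ND, red HCD), with a black bar at each group mean. ND 1, the blue circle, is the lowest point for each gene, at 3.17 FPKM for Tap2 and 30.7 FPKM for Psmb10.

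The transporter subunits had the widest spread of log2 values over the 6 libraries. Tap1 had an FPKM of 14.3, 23.5 and 23.1 in the ND tumours and of 20.4, 29.9 and 23.9 in the HCD tumours. HCD 1 lay below ND 2 and ND 3, so the groups overlapped broadly. The log2 difference was 0.29 (SE 0.22, 95% interval -0.25 to 0.83, limma adjusted p = 0.803), with 0.07 without ND 1 and -0.07 without ND 1 and HCD 2. Tap2 had an FPKM of 3.17, 6.42 and 4.99 in the ND tumours and of 5.74, 7.39 and 5.10 in the HCD tumours. ND 2 was second only to HCD 2. Its difference of 0.30 (95% interval -0.26 to 0.85, adjusted p = 0.803) was 0.07 without ND 1 and -0.06 without ND 1 and HCD 2. The ratio of Tap1 to Tap2 averaged 4.26 ± 0.519 with ND and 4.10 ± 0.574 with HCD (SD, n = 3).

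The peptide editors had the same tumours at the extremes. Tapbp had an FPKM of 27.4, 40.2 and 37.0 in the ND tumours and of 38.6, 45.6 and 36.9 in the HCD tumours. HCD 3 lay below both ND 2 and ND 3, and the log2 difference of 0.22 (adjusted p = 0.795) was 0.06 without ND 1 and -0.03 without ND 1 and HCD 2. Tapbpl had an FPKM of 17.1, 24.6 and 22.9 in the ND tumours and of 22.7, 27.8 and 23.7 in the HCD tumours. ND 2 exceeded HCD 1 and HCD 3. Its difference was 0.20 (adjusted p = 0.796), 0.05 without ND 1 and -0.03 without ND 1 and HCD 2. The ratio of Tapbp to Tapbpl stayed between 1.56 and 1.70 in the 6 libraries.

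Erap1, the trimming aminopeptidase, varied least over the 6 libraries. It had an FPKM of 34.0, 42.2 and 40.5 in the ND tumours and of 47.1, 45.0 and 41.0 in the HCD tumours. ND 2 lay between HCD 3 and HCD 2. The log2 difference was 0.19 (SE 0.10, 95% interval -0.05 to 0.42, limma adjusted p = 0.794) and 0.10 without ND 1.

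**Figure D3:**
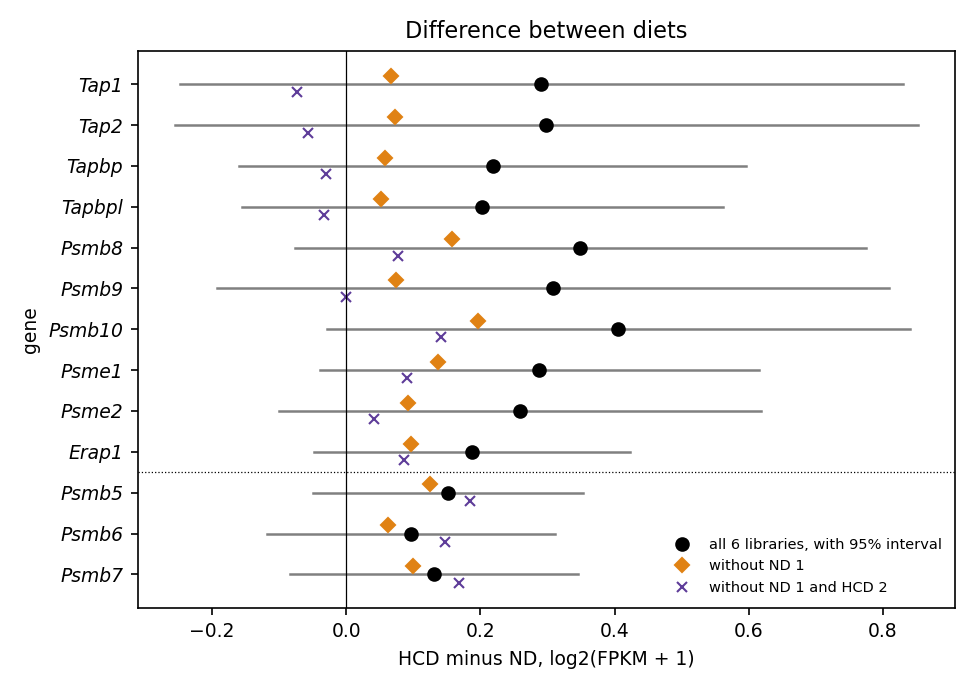
Log2 difference between diets (horizontal axis, HCD minus ND, of log2(FPKM + 1)) for the 10 genes and, below the dotted line, the 3 constitutive catalytic subunits. Black points with grey 95% intervals use all 6 libraries, orange diamonds leave out ND 1 and purple crosses leave out ND 1 and HCD 2; each of the 13 intervals includes 0, and for the 10 genes both other marks lie to the left of the black point.

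Ordered by mean FPKM over the 6 libraries, the genes ran Psmb10 (48.7), Erap1 (41.6), Tapbp (37.6), Psme2 (24.4), Tapbpl (23.1), Tap1 (22.5), Psme1 (17.9), Psmb9 (13.0), Psmb8 (10.5) and Tap2 (5.47). The range of each gene over the libraries overlapped that of the next gene in the order. Within libraries the order was firmer: 6 of the 9 neighbouring pairs kept it in all 6 libraries, while Tapbpl exceeded Tap1 in 3 of 6. The order depends on the length assigned to a gene, since FPKM divides by it. With principal transcript lengths in place of all exons of GENCODE M21, Psmb9 would be at 35.1, Psmb8 at 21.9 and Tap1 at 41.8, and Tapbpl would fall from the fifth to the eighth place. The ratio of a gene's FPKM between libraries does not change with its length.

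Beside each inducible subunit stands the constitutive subunit that it replaces, measured in the same library. The FPKM of Psmb5 averaged 56.3 ± 4.14 with ND and 62.7 ± 5.07 with HCD (SD, n = 3), Psmb6 at 22.5 ± 1.19 and 24.2 ± 2.55, and Psmb7 at 12.9 ± 0.544 and 14.3 ± 1.65. Their log2 differences were 0.15, 0.10 and 0.13 (adjusted p = 0.794, 0.824 and 0.794). The sum of the 3 constitutive subunits in ND 1 was 93.8% of the mean of ND 2 and ND 3, against 69.2% for the sum of the 10 immunoproteasome and loading genes.

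The ratio of Psmb8 to Psmb5 measured 0.124, 0.179 and 0.186 in the ND tumours, against 0.169, 0.231 and 0.172 in the HCD tumours. The ratio of Psmb9 to Psmb6 measured 0.370, 0.605 and 0.567 in the ND tumours, against 0.549, 0.748 and 0.505 in the HCD tumours. The ratio of Psmb10 to Psmb7 measured 2.495, 3.57 and 3.70 in the ND tumours, against 3.36, 4.63 and 3.74 in the HCD tumours. In each of the 3 ratios ND 1 was lowest and HCD 2 highest, with the other 4 tumours between them. Log2 ratios differed between diets by 0.23, 0.24 and 0.27 (exact two-sided permutation p = 0.6, 0.6 and 0.4, adjusted p = 0.6 each over the 3 ratios). With 3 libraries against 3, p cannot fall below 0.1. Without ND 1 these differences were 0.04, 0.01 and 0.09, and without ND 1 and HCD 2 they turned to -0.10, -0.15 and -0.04.

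The level of these ratios also depends on gene length: with principal transcript lengths the means in ND and HCD would be 0.339 and 0.396 for Psmb8 to Psmb5, 0.593 and 0.693 for Psmb9 to Psmb6, and 1.44 and 1.73 for Psmb10 to Psmb7.

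**Figure D4:**
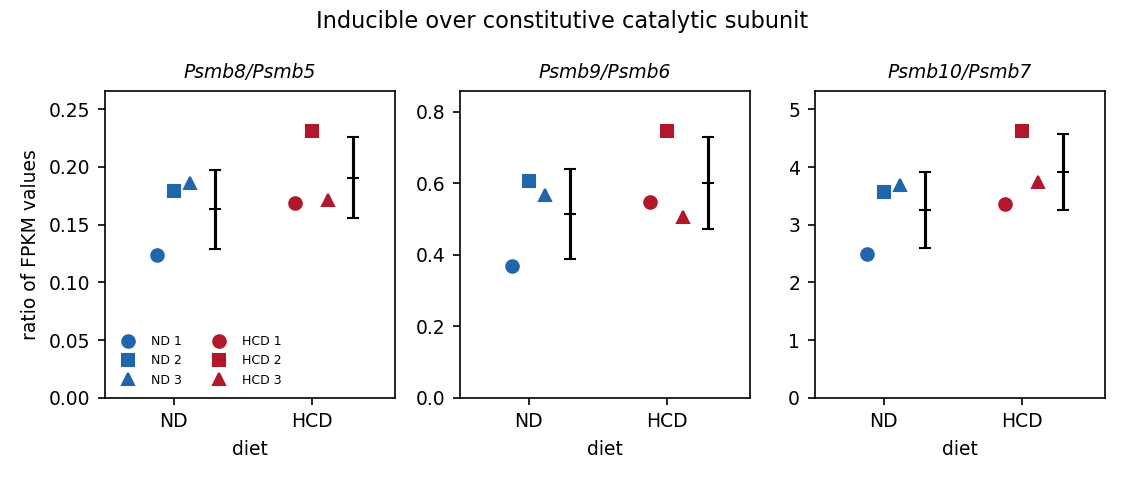
Ratio of the FPKM of each inducible catalytic subunit to the constitutive subunit it replaces, by diet, with 1 point per library and the group mean ± SD in black (n = 3). In all 3 panels ND 1 is the lowest point (0.124, 0.370 and 2.495) and HCD 2 the highest (0.231, 0.748 and 4.63).

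The remaining parts of the proteasome were taken from lists of subunits. Of 11 other 20S core subunits all had a higher mean in HCD, with a median log2 difference of 0.12, from 0.02 for Psmb2 to 0.23 for Psmb3 (adjusted p = 0.950 and 0.794). Of 18 subunits of the 19S cap, which recognises ubiquitinated proteins, 16 had a higher mean, with a median of 0.06, from -0.08 for Psmd14 to 0.16 for Psmd11 (adjusted p = 0.803 and 0.794). The 5 assembly factors all had higher means, from 0.07 for Psmg2 to 0.21 for Psmg4 (adjusted p = 0.877 and 0.794). Psme3, the PA28 gamma activator of the nucleus, differed by 0.12, Psme4, the PA200 activator, by -0.07, and Psmf1, a proteasome inhibitor, by 0.08 (adjusted p = 0.794, 0.867 and 0.795). None of these genes was called. ND 1 had the lowest value for 9 of the 11 core subunits, 13 of the 18 cap subunits and 4 of the 5 assembly factors. It was lowest for 1 of the 3 constitutive catalytic subunits. Without ND 1 the medians of the core, cap and assembly lists were 0.08, 0.04 and 0.09, where that of the 10 immunoproteasome and loading genes was 0.08. Without ND 1 and HCD 2 they were 0.12, 0.06 and 0.08, where the median of the 10 genes was 0.02. The differences of Psmb5, Psmb6 and Psmb7 were then 0.18, 0.15 and 0.17. This omission lowers the median of the 10 genes by construction, since ND 1 was lowest for all 10 and HCD 2 highest for 9. The sum of Psmb5, Psmb6 and Psmb7 was not highest in HCD 2, at 95.1% of its mean. Whether the core, cap and assembly lists or the constitutive subunits differ from the 10 genes was not tested.

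General chaperones of the loading complex were not lowest in ND 1. Calr (calreticulin) differed by 0.04, Canx (calnexin) by -0.11 and Pdia3 (ERp57) by -0.05 (adjusted p = 0.870, 0.794 and 0.834). Calr was highest in HCD 2 and lowest in HCD 3. Canx had the reverse of the pattern of most of the 10 genes, with its highest FPKM in ND 1 (108) and its lowest in HCD 2 (93.7). Pdia3 had an FPKM of 265, 259 and 252 in the ND tumours and of 258, 247 and 243 in the HCD tumours, so ND 1 had its highest value. B2m, the light chain of class I molecules, had an FPKM of 2143, 2639 and 2861 in the ND tumours and of 2623, 3211 and 2673 in the HCD tumours, with ND 1 lowest and HCD 2 highest as for most of the 10 genes. Its difference was 0.16 (adjusted p = 0.814) and 0.04 without ND 1.

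Of 7 tested other peptidases of class I peptides, 3 had a higher mean in HCD, with a median of -0.01. They ranged from -0.09 for Thop1 to 0.20 for Lap3, a leucine aminopeptidase induced by interferon gamma (adjusted p = 0.898 and 0.795). Lap3 had an FPKM of 22.4, 29.8 and 29.1 in the ND tumours and of 28.7, 36.1 and 28.5 in the HCD tumours. ND 1 was again lowest and HCD 2 highest, and the difference of Lap3 was 0.07 without ND 1 and 0.09 without HCD 2.

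Genes of the interferon gamma pathway were examined because this cytokine induces the immunoproteasome, in part through Irf1, and because Nlrc5 drives class I loading genes. Of 13 genes 11 had a higher mean in HCD, 0 were called and 9 were lowest in ND 1, with a median of 0.11. That median was -0.02 without ND 1 and -0.03 without HCD 2. Ifng itself had an FPKM of 1.01, 2.56 and 3.62 in the ND tumours and of 2.40, 5.76 and 1.90 in the HCD tumours. HCD 2 was highest and ND 1 lowest, and among the other 4 tumours both ND values lay above both HCD values.

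Irf1 and Nlrc5 had the same extremes. Irf1 had an FPKM of 25.6, 38.9 and 39.8 in the ND tumours and of 35.0, 45.6 and 33.4 in the HCD tumours. Nlrc5 had an FPKM of 10.9, 15.6 and 16.6 in the ND tumours and of 15.0, 18.9 and 12.8 in the HCD tumours. For both genes HCD 1 and HCD 3 lay below ND 2 and ND 3. The differences of Ifng, Irf1 and Nlrc5 were 0.34, 0.14 and 0.11 (adjusted p = 0.863, 0.877 and 0.8999). Without ND 1 they were 0.001, -0.06 and -0.06. At the ends of the list, Ciita, the class II transactivator, differed by 0.49 and Jak2 by -0.17 (adjusted p = 0.795 each), and without ND 1 by 0.11 and -0.14.

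The 5 genes outside the set whose log2 values over the 6 libraries were most like the mean of the 10 were Trafd1, Aim1, H2-D1, Ifi35 and Phf11b. H2-D1 encodes a classical class I heavy chain. Pearson's r of each with that mean ran from 0.991 to 0.993 over 6 libraries, and from 0.944 to 0.973 over the 5 libraries without ND 1. These are descriptions of the best of 11845 candidates, of which 4.42% had an r above 0.9, and the points are whole tumours whose depth and marker levels differed. H2-D1 had an FPKM of 462, 591 and 582 in the ND tumours and of 585, 670.1 and 586 in the HCD tumours.

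Markers of several leukocyte types had their extremes in the same libraries, as did endothelial markers, and some other lists did not. The sum of the 4 endothelial markers was lowest in ND 1, at 72.2% of its 6-library mean, and highest in HCD 2, at 176%. The summed level of 6 T cell markers was 5.20 to 20.6 FPKM in ND and 16.0 to 40.1 FPKM in HCD, lowest in ND 1 and highest in HCD 2. For 6 macrophage markers the sum was 228 to 551 FPKM in ND and 374 to 915 FPKM in HCD, and for 4 pan-leukocyte markers 28.7 to 69.6 and 52.0 to 105 FPKM, with the same tumours at the extremes. Of 11 lists with 52 marker genes, 8 had their lowest sum in ND 1 and 6 their highest in HCD 2, and 0 of the 46 tested markers were called. The sum of 4 neutrophil markers was 32.9 to 89.2 FPKM in ND and 31.5 to 35.4 FPKM in HCD. It was at 169%, 63.9% and 173% of its mean in the ND tumours. In the HCD tumours it was at 61.2%, 68.8% and 63.6%. The sum of 4 fibroblast markers was highest in ND 1, with 868 to 1036 FPKM in ND and 797 to 975 FPKM in HCD. Most of this sum was Dcn, highest in ND 1 at 914 FPKM. Col1a1, Col1a2 and Pdgfra were each highest in HCD 2, at 93.2, 44.7 and 1.51 FPKM. Skeletal muscle markers reached 568 FPKM in ND 2 and 682 FPKM in HCD 1, where the other 4 tumours had 3.57 to 64.4 FPKM. Ly6g, a neutrophil marker, was listed at 0 in HCD 2, and no other marker was at 0 in any library. The sum of the 10 genes was 69.9% of its 6-library mean in ND 1 and 120.0% in HCD 2, where T cell markers were at 24.7% and 190.3% and macrophage markers at 44.6% and 179%.

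HCD 3 had less of the T cell and macrophage markers than ND 2 and ND 3, with T cell markers at 75.8% of their mean against 89.6% and 97.7%. The sum of the 10 genes in HCD 3 was 102.7% of its mean, against 103.3% in ND 2 and 98.7% in ND 3. The part of leukocytes in the values of the 10 genes was not tested.

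**Figure D5:**
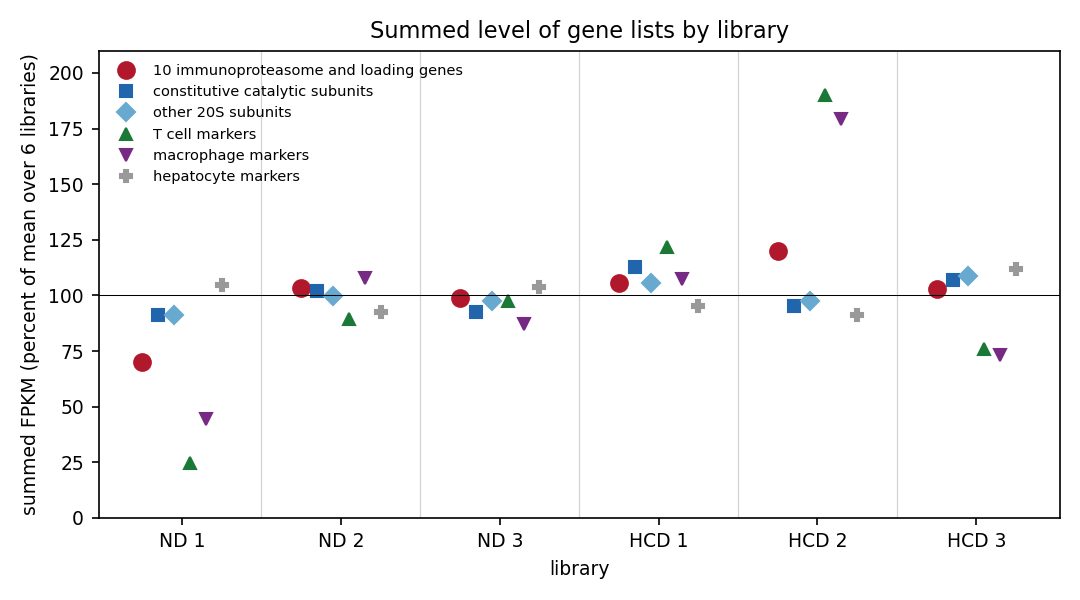
Summed FPKM of 6 gene lists in each library, as a percentage of the list's mean over the 6 libraries (line at 100). The sum of the 10 immunoproteasome and loading genes (red circles) is at 69.9% in ND 1 and 120.0% in HCD 2, T cell markers (green triangles) at 24.7% and 190.3%, and constitutive catalytic subunits (blue squares) at 91.1% and 95.1%.

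Several of these genes are neighbours. In GENCODE M21 on GRCm38, which mm10 denotes, Psmb9 (chr17:34181987-34187764, minus strand), Tap1 (chr17:34187553-34197225), Psmb8 (chr17:34197721-34201454) and Tap2 (chr17:34203527-34216321), the last 3 on the plus strand, lie side by side in the MHC region, with Tapbp (chr17:33915899-33929292, plus strand) nearby. Psme1 (chr14:55578123-55581529, plus strand) and Psme2 (chr14:55587441-55591113, minus strand) are close to each other. Psmb10 (chr8:105935735-105938444, minus strand), Tapbpl (chr6:125223933-125231860, minus strand) and Erap1 (chr13:74639568-74693201, plus strand) lie elsewhere. Tap1 and Psmb9 share 212 exon bases on opposite strands. Erap1 shares 834 exon bases with Cast, Psmb8 shares 498 with Gm20496, Tap2 shares 533 with Gm15821 and 165 with Gm20496, and Tapbp shares 904 with Gm19412 and 149 with Zbtb22. Of the constitutive subunits, Psmb7 shares 405 exon bases with Nek6 and Psmb5 shares 109 with Mir686. Tapbp and Zbtb22 lie on the same strand, as do Psmb5 and Mir686, so strand would not separate their reads. The other pairs named lie on opposite strands, and the sources used here do not state whether counting used strand. Reads from these stretches therefore cannot be assigned to either gene. From M21 exon lengths, each value of the 10 genes rested on about 274 (Tap2, ND 1) to 8066 (Erap1, ND 2) fragments, which at the lowest gives a counting error of 6.04%.

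Promoters were searched because interferon gamma acts on these genes through short DNA elements. In RefSeq windows of the 250 bases before each gene's start (GRCm38.p6), 8 of the 10 genes had an entry, with 9 windows in all. The core of the interferon-stimulated response element (GAAA, then 2 bases of any kind, then GAAA), on either strand, was in 0 of the 9, and in 2.98% of all 32851 windows. The gamma-activated sequence TTCNNNGAA, which reads the same on both strands, was in 1 of the 9, that of Psmb8, and in 7.02% of all windows. It is shown as the only match, on the plus strand at chr17:34198088-34198117, with the motif in capitals starting 97 bases before the RefSeq start and inside an exon of a longer GENCODE transcript.
Psmb8: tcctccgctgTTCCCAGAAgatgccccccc
A match is a description of these letters, and no binding was measured here.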

How the data were processed

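RNA sequencing of 6 Hep1-6 tumours (3 ND, 3 HCD) was deposited as 1 table of FPKM values, made by the authors, each sample in a column of its own per the file headers, with 0 value columns of no labelled sample. Tools named in the submitters' processing notes are TopHat2 2.0.9, CASAVA 1.8, edgeR and HTSeq, and the build is mm10, without roles; annotation release and strand use are not given in the sources used here. RNA was column-purified and libraries made with a TruSeq RNA kit, per the labels' protocols.

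FPKM are not counts, so limma 3.58.1 (R 4.3.3) was fitted on log2(FPKM + 1) to the 13417 genes whose mean FPKM reached 0.5. Diet was the only term, the prior variance followed the mean level (trend), and two-sided p-values were adjusted by Benjamini and Hochberg's method over all 13417. This scale understates changes of low genes. The fit was tested on simulated data. Subunit ratios were compared by exact permutation (scipy 1.17.1). Library sizes came from the commonest value step at M21 exon lengths, found for 34267 of 34745 IDs.

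Named genes were the 10 members, their constitutive counterparts, other activators, chaperones and regulators, the extremes of each list, and the 5 genes most alike among those whose mean FPKM reached 1. Members and lists were chosen with earlier results of these data known, and 1 gene of the interferon gamma list is not reported here. Alternatives were a pseudocount of 0.1, no low-value filter, median-ratio scaling, no variance trend, a replicate block and leaving out each library. Leaving out ND 1 and HCD 2 together and the use of principal transcript lengths were chosen after seeing the data.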

Additional observations from a re-analysis of the deposited data

How the results depend on the processing

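The count of genes called was 0 higher and 0 lower in HCD in each setting run, with 1 exception, and with single libraries omitted the range was 0 to 0 higher and 0 to 1 lower. The 1 gene was S100a9 without ND 2 (log2 difference -1.60, limma adjusted p = 0.0328). None of the 10 genes was called in any setting (0 to 0 over the omissions of 1 library); their lowest adjusted p was 0.557. The median difference of 0.29 ran from 0.08 (without ND 1) to 0.38 over these omissions and was 0.020 without ND 1 and HCD 2, a choice that by construction removes the lowest ND and the highest HCD tumour. Genes whose groups did not overlap numbered 2, and 2 to 7 when a library was left out, with 7 when ND 2 was omitted and 4 when either HCD 1 or HCD 3 was. In these settings the share of all tested genes without overlap in that direction also rose, from 5.98% to 14.7%, 9.51% and 14.1%, since fewer libraries overlap less often.

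Signs turned as follows. Without ND 1 and HCD 2, Tap1 was at -0.074, Tap2 at -0.056, Tapbp at -0.030, Tapbpl at -0.033, Psmb9 at -0.00062, B2m at -0.053, Ifng at -0.37, Irf1 at -0.20, Nlrc5 at -0.20, Lap3 at -0.039 and Ciita at -0.044, and the log2 ratios were -0.10 (Psmb8 to Psmb5), -0.15 (Psmb9 to Psmb6) and -0.035 (Psmb10 to Psmb7). Leaving out 1 library, Ifng ran from -0.031 (without HCD 2) to 0.60, Irf1 from -0.062 (without ND 1) to 0.25, Nlrc5 from -0.062 (without ND 1, and -0.028 without HCD 2) to 0.24, Psmb2 from -0.035 (without HCD 3, and -0.011 without ND 1) to 0.084, Psmg2 from -0.0014 (without HCD 3) to 0.14 and Thop1 from -0.20 to 0.053 (without ND 3). The 3 log2 ratios, in the order above, ran from 0.04 to 0.34, 0.01 to 0.37 and 0.09 to 0.38. A count test such as DESeq2 was not run because the values are FPKM. The cause of these turns was not tested. With the replicate number as a block, 0 genes were called and 0 of the 10 genes, and at an unadjusted p under 0.05 there were 353 higher and 400 lower. Same-numbered tumours did not deviate together (r = -0.19, 0.14 and 0.06 across genes for numbers 1 to 3), and ND 1 deviated most like HCD 3 (r = 0.53), so the numbers are not taken as pairs.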

Other observations

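Several parts of the standard proteasome had HCD values that all lay above the ND values, and are named here after their values were seen. Among 20S core subunits these were Psma3, Psma7 and Psmb3 (3 of 11), among 19S subunits Psmc2, Psmc6, Psmd11 and Adrm1 (4 of 18), and among assembly factors Psmg3 and Psmg4 (2 of 5), where 5.98% of tested genes did so. Psma3, an alpha ring subunit, had an FPKM of 15.2, 17.0 and 16.7 in the ND tumours and of 18.1, 19.6 and 19.5 in the HCD tumours, with a log2 difference of 0.22 (limma adjusted p = 0.794). Adrm1, a ubiquitin receptor of the cap, had an FPKM of 5.98, 6.71 and 6.39 in the ND tumours and of 7.19, 7.13 and 7.14 in the HCD tumours. Its difference was 0.15 (limma adjusted p = 0.794). HCD 2 was the highest tumour for Psma3, Psma7 and Psmg3, as for 9 of the 10 immunoproteasome and loading genes. It was not the highest for Psmb3, Psmc2, Psmc6, Psmd11, Adrm1 and Psmg4. None of these genes passed the test.

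Canx, the endoplasmic reticulum chaperone calnexin, went the other way. It had an FPKM of 108, 104 and 103 in the ND tumours and of 98.0, 93.7 and 99.6 in the HCD tumours, without overlap, and its difference of -0.11 did not pass (adjusted p = 0.794). Groups failed to overlap in this direction for 6.13% of tested genes.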
